A study of Arabidopsis thaliana with 12 samples.

Results

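CML41 (AT3G50770) and CML30 (AT2G15680) are 2 calmodulin-like genes of Arabidopsis thaliana, each measured by 1 feature of an expression array. They were chosen by 2 criteria: each is the gene of a feature annotated with exactly 1 gene, and their measured differences between recovery and light-adapted arrays run in opposite directions. They are 2 features of 3439 in all, and 2 of the 692 annotated with exactly 1 gene. Every value of that difference below is therefore a description with no test. Total RNA of wild-type plants of ecotype Columbia 0 was compared in 2 groups of 6 arrays, and no transgene, mutation or chemical treatment is named for either group. The labels name no dark period for the light-adapted plants, while the recovery plants had 1 h of darkness and were then returned to light. The recovery time is 2 h in the titles and 1 h in the source names, and the labels do not settle which is right. No tissue, plant age or light intensity is given, and no array was made at the end of darkness, so what darkness did and what renewed light did cannot be told apart.

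Calcium ions carry signals in plant cells, and calmodulin and its relatives are the sensors that read them. These proteins hold calcium in EF-hand loops, change shape on binding it and then attach to target enzymes, channels and transcription factors. Calmodulin-like proteins share the EF-hand fold but differ in sequence from calmodulin, and many of their genes respond to stress, pathogens or light. CML41 has been described at plasmodesmata, the channels between plant cells, where it takes part in closing them with callose during the response to bacterial flagellin. CML30 has been described as a mitochondrial protein.

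CML41 was higher and CML30 was lower in the recovery arrays than in the light-adapted arrays, and for neither gene did the groups overlap. Of the 1429 features above 0 on all arrays, 9.66% were higher and 22.2% lower without overlap on the deposited scale. The deposited intensity of CML41 averaged 0.182 ± 0.0524 over the light-adapted arrays and 0.698 ± 0.139 over the recovery arrays (SD, n = 6 per group), a ratio of means of 3.84. That of CML30 averaged 2.15 ± 0.525 over the light-adapted arrays and 0.594 ± 0.0435 over the recovery arrays (SD, n = 6 per group), and the light-adapted mean was 3.62 times the recovery mean. In RNA of whole samples, fewer cells of a type and less of the transcript per cell cannot be told apart. The labels do not say that the arrays of a group came from separate plants, so the spread between them, and any p-value made from it, may be technical. Precision is limited by how few arrays there are.

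The 6 light-adapted arrays, numbered 1 to 6, gave CML41 at intensities of 0.199, 0.148, 0.179, 0.201, 0.259 and 0.105. The recovery arrays 1 to 6 gave 0.685, 0.607, 0.705, 0.968, 0.622 and 0.599. The highest light-adapted array, number 5, lay below the lowest recovery array, number 6, by 0.340 intensity units. In recovery 5 arrays lay between 0.599 and 0.705, and array 4 stood above them. The light-adapted values were spread more widely in proportion, with the lowest and the highest on the arrays numbered 6 and 5.

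CML30 had intensities of 1.78, 1.97, 2.89, 2.74, 1.80 and 1.72 on light-adapted arrays 1 to 6. On recovery arrays 1 to 6 it had 0.517, 0.605, 0.607, 0.605, 0.580 and 0.649. The recovery arrays lay close together, while light-adapted arrays 3 and 4 stood above the other 4. Every recovery value was below every light-adapted value, by at least 1.07 intensity units.

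**Figure D1:**
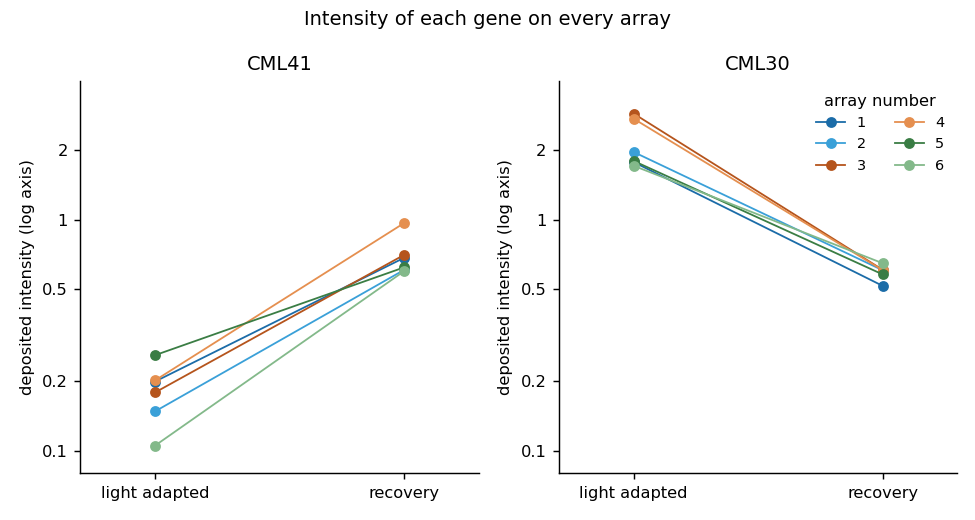
Deposited intensity (log axis) of CML41 and CML30 on the 6 light-adapted and 6 recovery arrays, 1 point per array, with a line joining arrays of the same number. CML41 runs from 0.105 to 0.259 light adapted and from 0.599 to 0.968 in recovery, while CML30 runs from 1.72 to 2.89 light adapted and from 0.517 to 0.649 in recovery.

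The arrays of the 2 groups also differed as a whole, which bears on the size of both differences. Median intensity over all features lay between 0.0710 and 0.103 on light-adapted arrays and between 0.0358 and 0.0400 on recovery arrays. These medians include features at 0, which were 17.9% to 22.2% of all on light-adapted arrays and 23.3% to 28.6% on recovery arrays. Summed intensity lay between 2286 and 3314, was highest on the arrays numbered 3 and 4 in both groups, and differed by at most 2.51% between same-numbered arrays. Both genes were above 0 on all 12 arrays, as were 1429 of the 3439 features. Of the green tissue markers listed, 2 had a feature of their own. LHB1B2, a light-harvesting antenna gene, had intensities of 27.5 to 48.7 light adapted and 14.3 to 37.8 in recovery, and PRK, the phosphoribulokinase gene, 3.69 to 5.93 and 1.02 to 2.17. Like CML30, both were lower in recovery in 6 of 6 pairs of deposited and of quantile-normalized values. Such a count was reached by 38.5% and 22.8%, in that order, of the 1429 features above 0 on all arrays. After quantile normalization LHB1B2 was at -1.28 ± 0.157 (SE, limma adjusted p = 5.62e-05) and PRK at -1.63 ± 0.174 (SE, limma adjusted p = 1.86e-05). On the deposited scale LHB1B2, at -0.77 (limma adjusted p = 0.0551), did not pass, while PRK, at -1.50 (limma adjusted p = 0.00059), did. After median centring neither passed, with LHB1B2 at 0.22 and PRK at -0.50. Their part in the CML30 difference was not tested. Of the guard cell, root, pollen and seed markers listed, 0 had a feature of their own.

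Set against the median of its own array, CML41 was 1.38 to 3.65 times that median in light-adapted plants, with a middle value of 1.88. In recovery it was 15.0 to 26.4 times the median, with a middle value of 17.6. CML30 was 17.3 to 29.7 times the array median in light-adapted plants and 14.2 to 17.0 times in recovery. On that measure CML41 thus moved further apart between the groups than in deposited intensity, and the CML30 groups nearly met, with a gap of 0.311 array medians between the lowest light-adapted array and the highest recovery array.

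Same-numbered arrays were compared on the log2 scale, as recovery minus light adapted. On the deposited scale the CML41 differences of pairs 1 to 6 were 1.78, 2.04, 1.98, 2.27, 1.26 and 2.51, with a mean of 1.97 ± 0.249 (SE from limma, n = 6 arrays per group). After quantile normalization, which gives every array the same distribution of values, they were 2.45, 2.78, 2.43, 2.70, 1.78 and 3.10, with a mean of 2.54 ± 0.240 (SE). These SEs leave the pairing out. After quantile normalization the SE was 0.224 with the replicate number as a block. It was 0.292 with the means of arrays 1 and 2, 3 and 4, and 5 and 6. The difference was smallest in pair 5 and largest in pair 6 on both scales, as the light-adapted arrays of those numbers held the highest and the lowest CML41 value. Pair 5 was the smallest and pair 6 the largest also after cyclic loess, after median centring and after scaling to the summed intensity. CML41 was higher in 6 of 6 pairs on each of these 5 scales. Of the 1429 features above 0 on all arrays, 26.7% were higher in all pairs after quantile normalization, 26.1% after cyclic loess, 17.3% on the deposited scale and also when scaled to the summed intensity, and 39.3% after median centring. Its groups did not overlap, as was the case in that direction for 17.6% of these features after quantile normalization, 30.7% after median centring and 9.66% on the deposited scale.

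For CML30 the deposited differences of pairs 1 to 6 were -1.78, -1.70, -2.25, -2.18, -1.63 and -1.40, with a mean of -1.83 ± 0.207 (SE from limma, n = 6 arrays per group). After quantile normalization they were -1.69, -1.73, -2.23, -2.21, -1.44 and -1.22, with a mean of -1.75 ± 0.183 (SE). Here too the pairing is left out of the SE, which after quantile normalization was 0.215 with the replicate block. With the means of arrays 1 and 2, 3 and 4, and 5 and 6 it was 0.319. Pairs 3 and 4 held the largest differences on both scales, and pair 6 the smallest. CML30 was lower in 6 of 6 pairs on each of the 5 scales. Of the features above 0 on all arrays, 22.8% were lower in all pairs after quantile normalization, 24.5% after cyclic loess, 38.5% on the deposited scale, 38.8% when scaled to the summed intensity and 13.9% after median centring. Its groups did not overlap either, which held in that direction for 16.1% of these features after quantile normalization, 8.54% after median centring and 22.2% on the deposited scale.

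**Figure D2:**
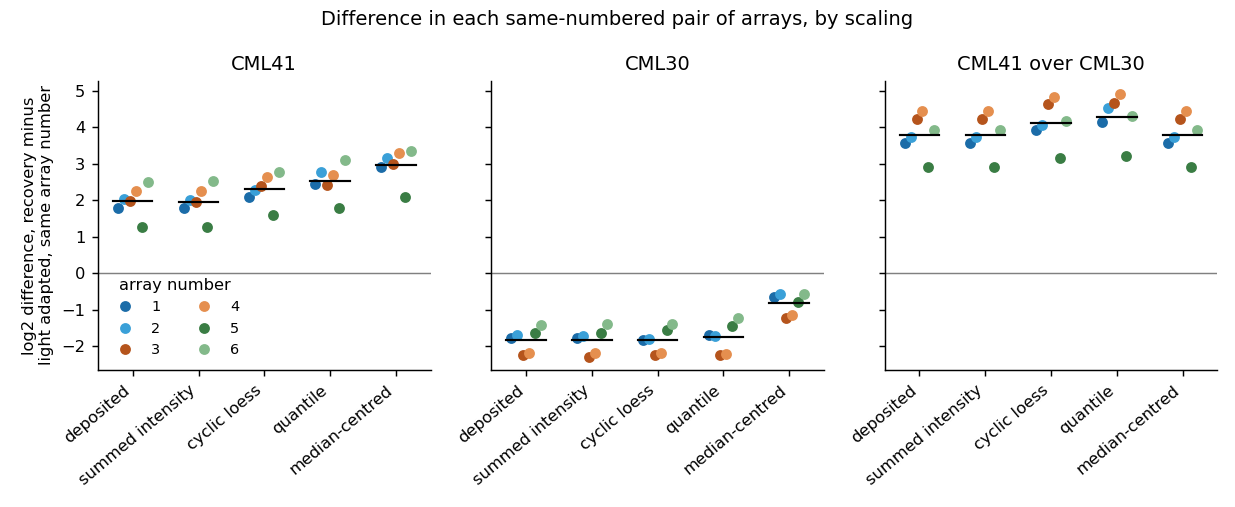
Log2 difference, recovery minus light adapted, of each same-numbered pair of arrays (points, coloured by array number) and their mean (line) on 5 scales, for CML41, CML30 and the within-array log ratio of CML41 over CML30. All CML41 points lie above 0 and all CML30 points below 0, and after median centring the CML30 mean is -0.83.

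The choice of scale moved the 2 genes differently. Median centring subtracted from each array the median of its log2 values above 0 in intensity, unlike the array medians given earlier, which include features at 0. CML41 ranged from 1.97 after scaling to the summed intensity to 2.97 ± 0.233 (SE from limma) after median centring, with cyclic loess at 2.30. CML30 stayed between -1.75 and -1.83 on 4 scales and was at -0.83 ± 0.173 (SE) after median centring, where its pair differences ran from -1.23 to -0.57. The median difference over the 2364 features tested was -0.82 on the deposited scale, -0.04 after quantile normalization and 0.19 after median centring. Relative to that median, CML41 was at 2.79, 2.58 and 2.78 on these scales and CML30 at -1.01, -1.71 and -1.01.

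A factor common to all features of an array cancels in the ratio of the 2 genes within that array. The level of that ratio carries no meaning, since the features may respond differently to the same amount of RNA, but its change between the groups does not depend on such a factor. The log2 ratio of CML41 over CML30 was higher in recovery by 3.56, 3.74, 4.23, 4.45, 2.90 and 3.92 in pairs 1 to 6 on the deposited scale. Its mean change was 3.80 ± 0.235 (SE, n = 6 arrays per group), 13.9-fold, and it was the same after median centring and after scaling to the summed intensity. Quantile normalization and cyclic loess, which do not apply a single factor, gave 4.29 and 4.13. The change was smallest in pair 5 and largest in pair 4 on all 5 scales.

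Among the 452 tested features with exactly 1 gene, the CML41 difference ranked 13th from the highest after quantile normalization, and between 13th and 19th on the 5 scales. The CML30 difference ranked 63rd from the lowest after quantile normalization, 53rd after cyclic loess and between 119th and 121st on the other 3 scales. CML41 was thus near the upper end of the named features whichever scale was used, while the place of CML30 moved with the scale. These ranks describe the contrast by which both genes were chosen. Of all 2364 features tested, 438 (18.5%) were higher and 435 (18.4%) lower after quantile normalization at an adjusted p under 0.05 in limma, against 226 (9.56%) and 870 (36.8%) on the deposited scale and 646 (27.3%) and 323 (13.7%) after median centring.

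**Figure D3:**
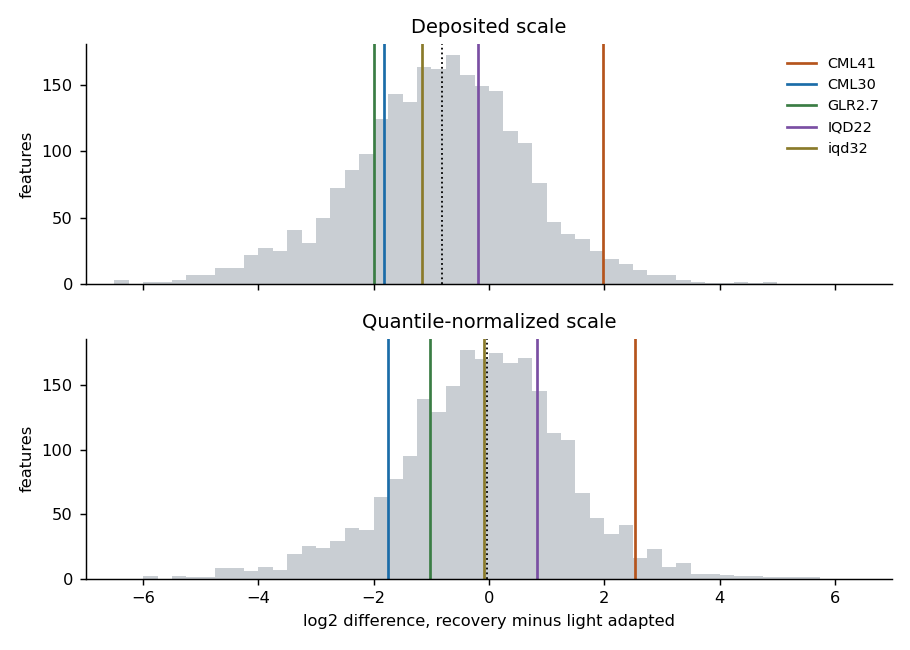
Number of features by log2 difference, recovery minus light adapted, for the 2364 features tested, on the deposited scale (top) and after quantile normalization (bottom). Vertical lines mark CML41, CML30 and the 3 other calcium genes, and the dotted line marks the median of all features, at -0.82 and -0.04; CML41 lies in the upper tail of both.

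The genes were chosen by the direction of their difference and not directly by the spread inside each group. A clear difference is more easily seen where that spread is small, so the choice may still have favoured a small spread. After quantile normalization the log2 SD of CML41 was 0.496 over light-adapted arrays and 0.174 over recovery arrays, against medians of 0.693 and 0.590 over the features tested. Those features were not matched to the 2 genes in intensity, so the comparison is a description. CML30 had 0.148 and 0.285, the reverse order. On the deposited scale the SD of CML30 was 0.335 light adapted and 0.109 in recovery, so which group varied more for CML30 turned with the scaling. For CML41 the light-adapted SD, 0.447 on the deposited scale, was above the recovery SD, 0.260, on both.

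Within each group, neighbouring arrays (1 with 2, 3 with 4, 5 with 6) have like summed intensities, and it is not known whether such neighbours are separate samples. For CML30 these neighbours differed by 0.08 to 0.20 (log2, quantile normalized), while the means of the 3 sets covered a range of 0.27 light adapted and 0.62 in recovery. On the deposited scale these ranges were 0.68 and 0.13, and in recovery arrays 1 and 2, at 0.23, and 5 and 6, at 0.16, differed by more than the means of the sets. For CML41 light-adapted arrays 5 and 6 differed by 1.40, arrays 1 and 2 by 0.52 and arrays 3 and 4 by 0.17 after quantile normalization, while the means of the sets covered 0.31.

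Whether the 2 genes varied together from array to array was asked within each group, over 6 arrays. In light-adapted arrays Pearson's r was -0.13 (exact permutation p = 0.806, two-sided) and Spearman's rho -0.029 (exact permutation p = 1) on the quantile-normalized scale. In recovery arrays r was 0.33 (exact permutation p = 0.579) and rho 0.20 (exact permutation p = 0.714). Each gene was also compared between same-numbered arrays of the 2 groups: r was 0.45 for CML41 (exact permutation p = 0.358, rho 0.77, p = 0.103) and -0.72 for CML30 (exact permutation p = 0.128, rho -0.60, p = 0.242). After Benjamini-Hochberg adjustment over the 4 relations the exact permutation p-values of r were 0.806, 0.772, 0.717 and 0.511 in that order, and those of rho were 1, 0.952, 0.411 and 0.483. None of the 4 passed. Without the 2 arrays farthest from the median of the first measure, r was -0.88, -0.57, 0.67 and -0.37 in the same order, so 1 of the 4 changed sign. On the deposited scale the CML30 relation turned to 0.22. If neighbouring arrays are not separate samples, even these p-values are too small.

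Other genes of calcium signalling were few on features of their own. Of the listed sensors, channels, pumps, exchangers, kinases and calmodulin targets, 3 besides CML41 and CML30 had such a feature, and all 3 were tested: GLR2.7 (AT2G29120), a glutamate receptor-like channel gene, and IQD22 (AT4G23060) and iqd32 (AT1G19870), of the IQ67-domain family of calmodulin-binding proteins. In limma 0 of 3 passed in either direction at an adjusted p under 0.05, where 36.9% of all features did, and 2 of 3 had an unadjusted p under 0.05. With the replicate number as a block 1 was higher and 1 lower, where 35.2% of all features passed. With the means of neighbouring arrays, 3 against 3, both calls were lost, at limma adjusted p = 0.143 for each. The median difference of the 3 was -0.08, against -0.04 over all features tested. It is the value of iqd32 (SE 0.895), while GLR2.7 was at -1.02 and IQD22 at 0.83, so it does not describe the 3 together.

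GLR2.7 had intensities of 0.145 to 0.351 in light-adapted arrays, with a median of 0.202. In recovery it lay between 0 and 0.0926, with a median of 0.0593 and 5 of 6 arrays above 0. All recovery values were below all light-adapted values in deposited intensity. The same held for 22.2% of the features above 0 on all arrays, among which GLR2.7 does not count. Its difference was -1.02 ± 0.379 (SE, limma adjusted p = 0.0546) after quantile normalization, with the recovery array at 0 left out, which did not pass, and -1.13 (limma adjusted p = 0.0166) with the replicate number as a block. With the means of neighbouring arrays it was -0.94 (limma adjusted p = 0.143). On the deposited scale it was -1.99 (limma adjusted p = 0.00155). It was lower in 5 of the 5 quantile-normalized pairs in which both arrays were above 0. Of the features above 0 on all arrays, 22.8% were lower in 6 of 6 pairs on that scale.

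IQD22 had intensities of 0.0546 to 0.123 in light-adapted arrays and 0.0410 to 0.109 in recovery arrays, and these overlapped. In deposited intensity it was lower in 5 of 6 pairs. After quantile normalization it was higher in 6 of 6, as were 26.7% of the 1429 features above 0 on all arrays. The quantile-normalized difference was 0.83 ± 0.306 (SE, limma adjusted p = 0.0519), and blocking on the replicate number gave a limma adjusted p of 0.0165, while the means of neighbouring arrays gave 0.143. On the deposited scale it was -0.20 (limma adjusted p = 0.585), so its direction depended on the scaling. For iqd32, which was above 0 on 4 of 6 recovery arrays and at most at 0.0678 on any array, the difference, with the 2 recovery arrays at 0 left out, was -0.08 ± 0.895 (SE, limma adjusted p = 0.956), and on the deposited scale it was -1.17 (limma adjusted p = 0.285). Of the listed genes for plasmodesmata and callose and for the early response to flagellin, 0 had a feature of their own, so CML41 could not be set beside them.

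The genes most like each member were taken from the 257 other features with exactly 1 gene that were above 0 on all arrays, by Pearson's r over the 12 arrays after quantile normalization. Since both members differ between the groups, a high r mostly reflects a shared difference between the groups, and all values come from the same 12 arrays. For CML41 they were AT4G13550 (r = 0.978), THIC, a gene of thiamine synthesis (0.967), SIS, annotated as salt-induced and serine-rich (0.966), OTP70, annotated for organelle transcript processing (0.965), and AT1G17160 (0.942). The next gene, AT3G45770, had r = 0.942 as well, so the fifth place is not set apart. The differences of these 5 were 3.31, 2.50, 2.96, 1.84 and 2.60, so CML41 at 2.54 lay in their midst, and THIC and AT1G17160 were nearest to it in size.

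THIC had a mean intensity of 0.227 ± 0.0291 light adapted and 0.920 ± 0.220 in recovery (SD, n = 6 per group). OTP70 had 0.147 ± 0.0339 and 0.317 ± 0.0549. With the group means removed, r with CML41 was 0.60 for AT4G13550, 0.48 for OTP70, 0.38 for SIS, 0.24 for THIC and 0.11 for AT1G17160. None of the 5 was among the 5 highest by that measure, on which AT5G53080 led at 0.81. After quantile normalization AT4G13550, SIS and THIC had, like CML41, their highest light-adapted value on array 5. For THIC that array led narrowly, at 0.15 above the light-adapted mean against 0.081 on array 2 (log2).

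For CML30 the most alike genes were AT4G39690 (r = 0.981), AT3G09080 (0.981), IAA31, a gene of the Aux/IAA repressors of auxin response (0.971), ATSPS4F, a sucrose-phosphate synthase gene (0.968), and AT5G26850 (0.967). Their differences after quantile normalization were -1.53, -1.17, -4.59, -1.74 and -4.03, so ATSPS4F came nearest to CML30 at -1.75. After median centring they were -0.56, 0.088, -4.12, -0.98 and -3.58 in the same order, so AT3G09080 was not lower on that scale. ATSPS4F had a mean intensity of 1.44 ± 0.483 light adapted and 0.353 ± 0.0481 in recovery (SD, n = 6 per group). With the group means removed, AT4G39690 (r = 0.79) and ATSPS4F (0.79) were also the 2 genes most like CML30 inside the groups, while IAA31 was at 0.15. Like CML30, both were lowest on recovery arrays 3 and 4 after quantile normalization, and so was AT3G09080. This order belongs to that scale, as the deposited CML30 intensity was 0.607 and 0.605 there and lowest on recovery array 1, at 0.517.

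**Figure D4:**
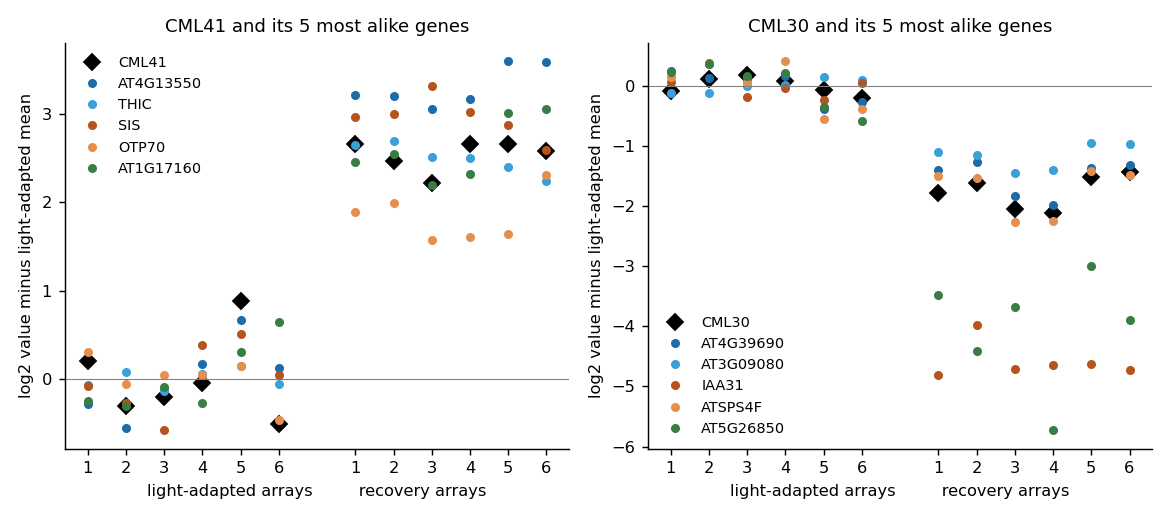
Quantile-normalized log2 value minus the gene's own light-adapted mean on each array, for CML41 (left, black diamonds) and CML30 (right, black diamonds) with the 5 genes whose values correlate best with each over 12 arrays (coloured points). The genes beside CML41 have mean recovery values of 1.84 to 3.31, and those beside CML30 of -1.17 to -4.59.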

How the data were processed

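Per the labels, total RNA of 6 light-adapted and 6 recovery samples was measured on arrays with 1 channel. The intensity values are those the authors deposited, from 0 to a ceiling of 100. They were read as linear because none is negative and some are exactly 0. Scanner, background correction and normalization are not stated in the sources used; scale and centring stay unknown, while direction rests on no ratio. Array medians are in the report. Features with 1 gene (692), several (870) or none named (1877) follow the platform annotation, and 690 of the 692 matched a TAIR10.1 gene table by identifier. No coordinates are given, as the build of the array is unknown.

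Values at 0 were set to missing, log2 values were quantile normalized, and the 2364 features with at least 4 values above 0 per group entered limma 3.58.1 with R 4.3.3 (lmFit, eBayes, Benjamini-Hochberg, two-sided). The fit was tested on simulated data. Alternatives were the deposited scale, median centring, cyclic loess, a pseudocount of 0.01, other filters, the replicate number as a block, means of neighbouring arrays and arrays left out. Scaling to summed intensity and leaving out neighbouring pairs were added after seeing the data. Relations over 6 arrays used exact permutation of pairings in Python 3.11.15. Deviations of same-numbered arrays from their group means correlated with r between 0.108 and 0.193 in all 6 pairs over 1429 features, so the numbers were taken to pair the arrays, on the values and not on the labels. Named are the 2 members, tested genes of the calcium, plasmodesmata and flagellin lists, and the 5 genes most like each member. Markers of tissue, AT3G45770 and AT5G53080 are named beside these. Members and lists were chosen with earlier results of these data known.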

Additional observations from a re-analysis of the deposited data

Results flagged for a closer look

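CML41 on recovery array 4 stood apart from the other recovery arrays on the deposited log2 scale. Its gap to the next array was 0.661 of the whole range of the 6 arrays, above the Dixon limit for 6 values. Its deposited log2 value was -0.05, against -0.74 to -0.50 on the other 5. After quantile normalization it was at -0.33, inside the range of the others, -0.76 to -0.32. The summed intensity of recovery arrays 3 and 4 was 3314 and 3287, the highest of that group, and its part in the high value was not tested. Of 12 sets of 6 values examined in this way, for CML41, CML30 and their log ratio on the deposited and quantile-normalized scales, 1 was beyond the limit, and chance flags about 1 in 20. Without recovery array 4 the quantile-normalized CML41 difference was 2.47.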

How the results depend on the processing

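CML41 was higher and CML30 lower in recovery under all 31 alternatives run for each. Both genes were chosen by this direction and their groups did not overlap, so the kept direction is a description and no test. The other filters, the replicate block and the means of neighbouring arrays left the quantile-normalized differences at 2.54 and -1.75. CML41, at 2.54, moved by more than the spread between arrays to 1.97 on the deposited scale, with or without the replicate block, to 1.97 when scaled to the summed intensity and to 2.97 after median centring. CML30, at -1.75, moved by that much only after median centring, to -0.83. The log ratio, at 4.29, was 3.80 on the deposited scale with or without the replicate block, after median centring and when scaled to the summed intensity. Leaving out single arrays or pairs of one number gave 2.43 to 2.74, -1.86 to -1.65 and 4.14 to 4.52, and leaving out neighbouring arrays of both groups (1 and 2, 3 and 4, or 5 and 6) gave 2.47 to 2.59, -1.96 to -1.53 and 3.996 to 4.55. The replicate block on quantile-normalized values left the 3 differences at 2.54, -1.75 and 4.29. Features called higher and lower, 438 and 435, were 226 and 870 on the deposited scale, 236 and 895 there with the replicate block, 251 and 897 when scaled to the summed intensity, and 199 and 206 with the means of arrays 1 and 2, 3 and 4, and 5 and 6. The lower calls were 281 without arrays 1 and 2 and 284 without arrays 3 and 4 of each group. After median centring 646 were higher and 323 lower.

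Of the calcium genes, 0 were called in either direction. IQD22 made 1 higher call with the replicate block, after cyclic loess, with the pseudocount and among features above 0 on all arrays. GLR2.7 made 1 lower call with the replicate block, on the deposited scale with or without it, and when scaled to the summed intensity. Leaving out arrays gave 0 to 1 in each direction. IQD22 turned to -0.20 on the deposited scale, with or without the block, and to -0.21 when scaled to the summed intensity, and iqd32, at -0.08, was at -1.17 on the deposited scale, -1.16 there with the block and -1.21 when scaled to the summed intensity, and ran from -0.27 to 0.13 with single arrays or same-numbered pairs left out. With the means of neighbouring arrays 0 of the 3 were called. The relation of CML41 with CML30 in light-adapted arrays turned to 0.21 on the deposited scale and to 0.074 after median centring. In recovery arrays it turned to -0.066, -0.38 and, after cyclic loess, -0.061. The CML30 relation between same-numbered arrays turned to 0.22 on the deposited scale. None passed on these 3 scales or after quantile normalization, the 4 on which the relations were run. Of the 5 genes most like CML41, 3 remained on the deposited scale, 2 by Spearman correlation and 0 by deviations from the group means, and for CML30 3, 3 and 2.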
